A study of Sus scrofa with 6 samples.

Results

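The genes described here encode the constitutive proteasome: the alpha and beta rings of the 20S core, the ATPase and non-ATPase subunits of the 19S regulatory particle, the proteasome activators, and POMP, a factor that helps build the core. They were chosen by name, 36 in all, without use of measured values, though earlier results of these data were known. Of these, 34 matched an Ensembl identifier of the count table, and all 34 had enough reads to be tested, among 14242 tested genes of 35670 identifiers. PSMB5 and PSMB6, the genes of the chymotrypsin-like and caspase-like subunits, were not analysed here, since no identifier carried their symbols.

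RNA was sequenced from granulosa cells of the pig (Sus scrofa), the somatic cells that line the ovarian follicle, aspirated from small healthy follicles of 3 to 6 mm and grown in culture medium with serum and antibiotics. The heat group (n = 3) spent 6 h at 42 °C, and the control group (n = 3) spent the same time at 37 °C. The labels call the samples biological replicates of primary cultures but name no animals and no pooling. The p-values thus cover only the spread between these samples, which may be technical. The series asks which genes of these cells respond to heat.

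The 26S proteasome is the main protease of the cytosol and nucleus. The 19S particle binds ubiquitin-tagged proteins, removes the ubiquitin, unfolds them with its ring of ATPases and threads them into the 20S barrel, where beta subunits cut them. Activators such as PA28 and PA200 can cap the barrel in place of the 19S particle. In stressed cells the proteasome degrades damaged proteins that chaperones do not refold, and the transcription factor NRF1, encoded by NFE2L1, raises transcription of its subunit genes when its activity falls short.

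The libraries held between 20411952 and 29606378 counts in heat and between 18711440 and 22599356 counts in controls. Within each group, a pair of libraries was far more alike than the rest. Across 14242 genes, log2 CPM (each count scaled by its library size) had a Pearson correlation of 0.991 between heat 1 and heat 2 and of 0.990 between control 2 and control 3. These correlations only describe the libraries, because genes are not independent replicates. The chi-square per degree of freedom was 16.4 and 19.8 for those pairs, above counting noise, and at least 391 for every other pair. Heat 3 and control 1 stood apart from their groups, and the fold changes of the members are also given without them. Of 10 granulosa cell markers, 8 matched an identifier and 4 could be tested (INHBA, FST, NR5A2 and CDH2). None of these 4 passed, with log2 fold changes of -0.61, 1.24, -0.23 and 0.27. FOXL2 and CYP19A1 matched no identifier, so their levels are not known. The matched markers that could not be tested, FSHR, AMH, INHA and HSD17B1, had few reads. FSHR, the receptor for follicle-stimulating hormone, had 0, 2 and 0 reads in heat 1, 2 and 3 and 6, 49 and 15 reads in control 1, 2 and 3. AMH had 4, 6 and 3 reads in heat 1, 2 and 3 and 1, 3 and 0 reads in control 1, 2 and 3, and INHA and HSD17B1 had at most 7 and 9 in any library.

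No proteasome gene passed the test between heat and control. Of 34 members, 31 had a negative log2 fold change (heat minus control) and 3 a positive one, PSMD2, PSMD3 and PSMD11, but 0 had an adjusted p below 0.05 by the quasi-likelihood test of edgeR. Of all tested genes 11.0% did, 6.71% higher and 4.32% lower in heat. At an unadjusted p below 0.05 stood 5 of the 34 members and 33.9% of all genes (4832 of 14242). The members' median log2 fold change was -0.71, and that of all tested genes was 0.05. DESeq2 called 5 members lower in heat (PSMA3, PSMA4, PSMA6, PSMC6 and PSMD7) and 0 higher, where it called 12.6% of all genes lower, and limma-voom called 0 members and 12.5% of all genes. The lowest edgeR adjusted p-values were 0.0867 for PSMD7 and 0.0877 for PSMC6.

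Levels differed widely among the libraries of a group. The summed level of the 34 members was 1308, 1304 and 2382 TMM-scaled CPM (the scale of every CPM value below, with edgeR's TMM factors) in heat 1, 2 and 3. It was 1735, 3146 and 3091 in control 1, 2 and 3. Heat 1 and heat 2 were the lowest libraries and control 2 and control 3 the highest, while heat 3 lay above control 1. As a share of all counts, with 95% Wilson intervals that cover counting error only, the members took 0.127% (0.126 to 0.129) of heat 1, 0.137% (0.136 to 0.139) of heat 2 and 0.263% (0.261 to 0.265) of heat 3. They took 0.139% (0.137 to 0.140) of control 1, 0.319% (0.316 to 0.321) of control 2 and 0.333% (0.331 to 0.336) of control 3. The intervals of heat 2 and control 1 overlapped, and those of all other pairs did not. The lowest count of any member in a library was 141 reads.

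Most members shared this order of libraries. Heat 1 and heat 2 lay below control 2 and control 3 for 32 of 34 members, a pattern of 43.4% of all tested genes, and the exceptions were PSMD3 and PSMD11. Heat 3 was the highest heat library for 32 members (46.6% of all genes), with PSMC5 and PSME2 as exceptions. Control 1 was the lowest control for 30 members (46.1% of all genes) and lay below heat 3 for 31 (53.8% of all genes). Heat 1 and heat 2 were below control 1 as well for 23 members (45.4% of all genes). Every heat library lay below every control for 2 members, PSMA7 and PSME4, against 16.8% of all genes. PSMD3 was the 1 member with every heat library above every control, against 20.9% of all genes. From log2 CPM with a prior count of 2, the ratio of the highest to the lowest of the 6 libraries had a median of 3.56 over the members and 3.29 over all tested genes, and it ran from 1.27 to 8.64 among the members.

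**Figure D1:**
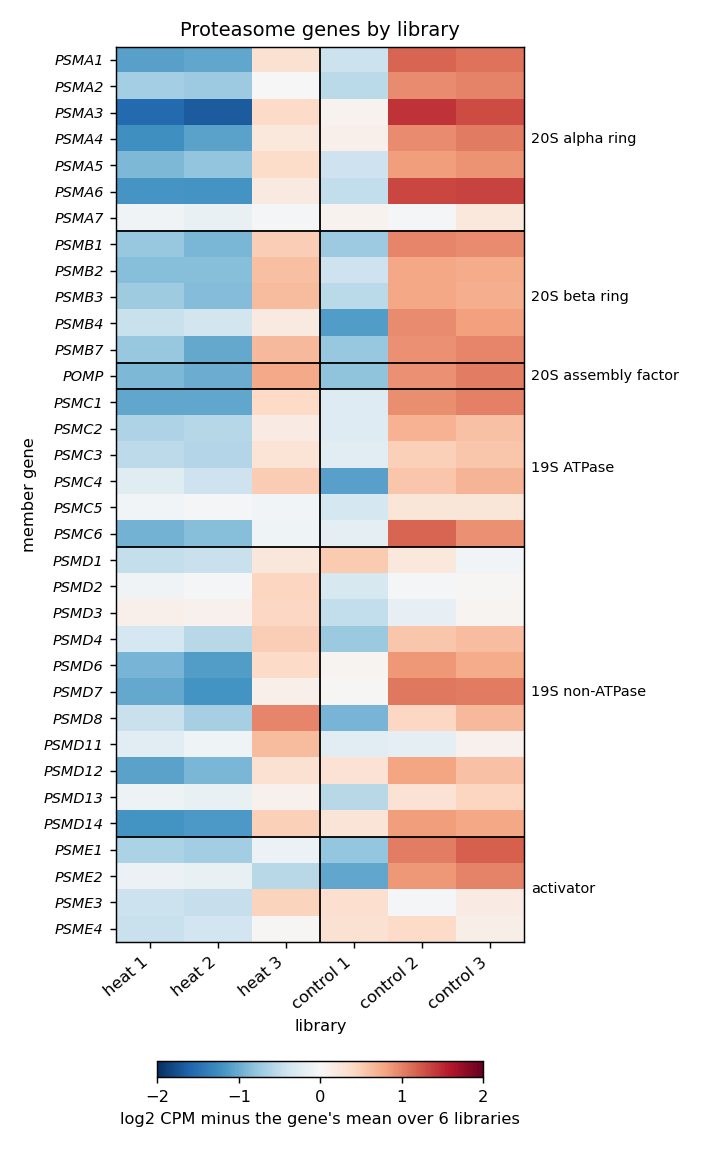
Level of each of the 34 members (rows, by subcomplex) in each library (columns, heat on the left), as log2 TMM-scaled CPM minus the gene's mean over the 6 libraries. Heat 1 and heat 2 are mostly blue, control 2 and control 3 mostly red, heat 3 is above control 1 for 31 members, and PSMA7 varies least.

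Other features also differed between libraries of 1 group, and the summed stromal and theca markers ranked the libraries in the same order. The summed stromal markers (6 of 7 matched, none at 0 in any library) measured 87899, 79363 and 28071 CPM in heat 1, 2 and 3, against 59101, 7419 and 6696 CPM in control 1, 2 and 3. They were highest in heat 1, heat 2 and control 1, the libraries with the lowest summed members. The 13 mitochondrially encoded protein genes took 7.94, 7.49 and 5.04% of the counts in heat 1, 2 and 3 and 25.3, 14.3 and 12.4% in control 1, 2 and 3. Interferon-stimulated genes (13 of 13 matched) summed to 361, 381 and 403 CPM in heat 1, 2 and 3 and to 579, 1680.1 and 1616 CPM in control 1, 2 and 3. The 7 leukocyte markers summed to 4.69, 3.02 and 1.34 CPM in heat 1, 2 and 3 and to 3.20, 30.0 and 61.4 CPM in control 1, 2 and 3. Most of the sum in control 2 and control 3 was LYZ, at 26.3 and 54.1 CPM, and the marker CD14 measured 2.24, 1.95 and 0.703 CPM in heat 1, 2 and 3, against 1.80, 1.14 and 1.69 CPM in control 1, 2 and 3. PTPRC, CSF1R, ITGAM and CD3E had too few reads to test, and CD3E was at 0 throughout. PTPRC had 0 reads in every heat library and 0, 35 and 64 reads in control 1, 2 and 3. CSF1R had 1, 0 and 1 reads in heat 1, 2 and 3 and 0, 7 and 11 in control 1, 2 and 3. ITGAM had 7, 8 and 3 reads in heat 1, 2 and 3 and 0, 3 and 3 in control 1, 2 and 3. Smooth muscle markers (4 of 4 matched) summed to 6230, 5976 and 13452 CPM in heat 1, 2 and 3 and to 9626, 9630.1 and 9891 CPM in control 1, 2 and 3. The sum was highest in heat 3, as were ACTA2, TAGLN and CNN1 each, but MYH11 was lowest there. MYH11 measured 1457, 1413 and 1203 CPM in heat 1, 2 and 3, against 2887, 1888 and 1758 CPM in control 1, 2 and 3. Theca markers (5 of 5 matched, INSL3 at 0 throughout) summed to 30.1, 28.5 and 6.48 CPM in heat 1, 2 and 3 and to 10.5, 2.18 and 2.08 CPM in control 1, 2 and 3. Most of that sum was PTCH1 alone, at 29.1, 27.4 and 5.75 CPM in heat 1, 2 and 3. PTCH1 measured 10.0, 1.53 and 1.64 CPM in control 1, 2 and 3. CYP17A1 and GLI1 had too few reads to test, and STAR reached at most 0.976 CPM, in heat 2. The part of these features in the results was not tested. In bulk RNA, fewer cells of a type and less RNA per cell cannot be told apart.

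Without heat 3 and control 1 together, the test called 30 of 34 members lower in heat and 0 higher. That fit compares only the near-identical pairs, so its SE and p-values cover only the spread within those pairs. It called 38.4% of all genes lower and 41.2% higher. This limit and these shares hold for all calls of that fit given below. The 4 members that did not pass there were PSMA7, PSMD2, PSMD3 and PSMD11. Their log2 fold changes were -0.22 ± 0.12, -0.07 ± 0.13, 0.12 ± 0.13 and -0.13 ± 0.13 (SE; edgeR adjusted p = 0.0973, 0.591, 0.370 and 0.345), so PSMD2 and PSMD11 lay on the other side of 0 from the fit to all libraries. Without control 1 alone, 9 members were called lower (12.3% of all genes were), and without heat 3 alone, 10 were (17.7% of all genes). PSMA1, PSMA4, PSMA6, PSMC6 and PSMD7 were called in both of these fits. Without heat 1 or heat 2, 0 members were called (0.0475 and 0.0406% of all genes were). Without control 2 or control 3, 0 members and 0.0% of all genes were called, although 3165 and 3303 genes had an unadjusted p below 0.05. With each near-identical pair summed into 1 library, 0 members and 0.0129% of all genes were called. In these 5 edgeR fits 0 members had an unadjusted p below 0.05.

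**Figure D2:**
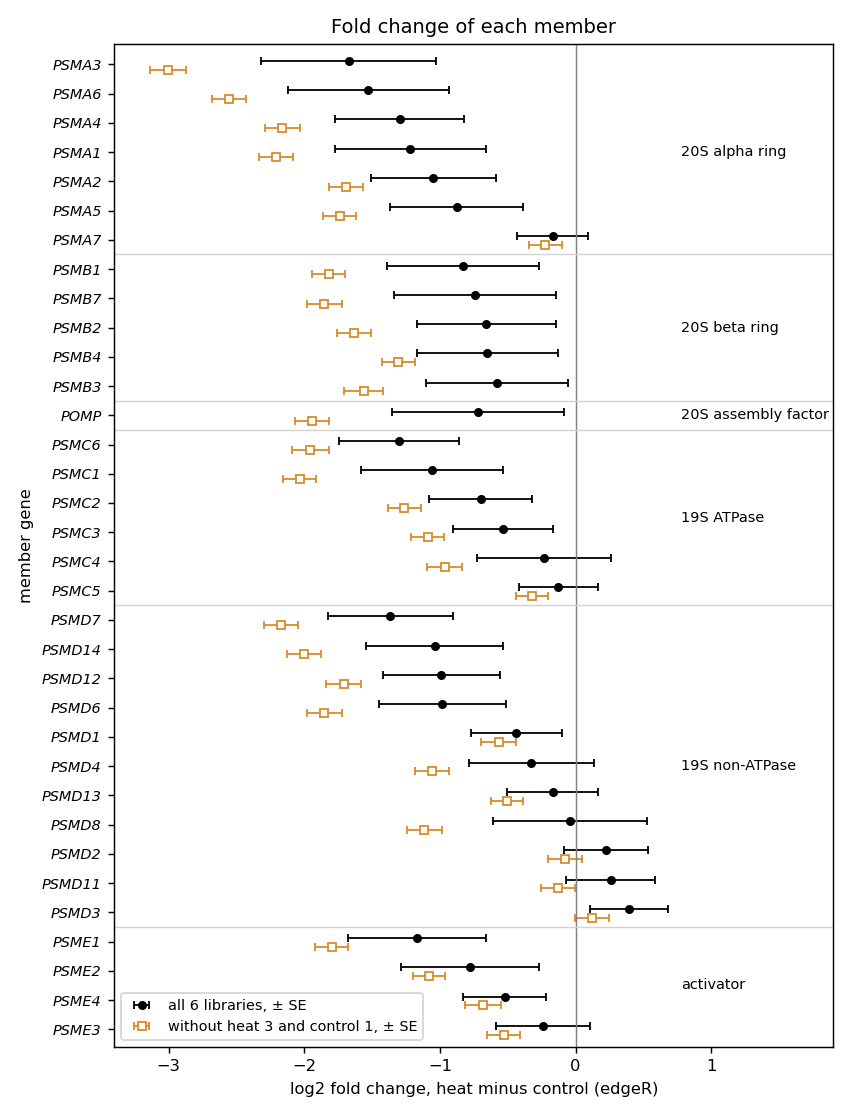
Log2 fold change, heat minus control, of each member with its SE, from the edgeR fit to all 6 libraries (filled) and to the 4 libraries left without heat 3 and control 1 (open). Values lie left of 0 for 31 of 34 members in the fit to all libraries, and the alpha ring reaches furthest, with PSMA3 at -1.67 and -3.01.

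The 7 genes of the alpha ring, which forms the gated entrance of the 20S barrel, all had negative fold changes, with a median of -1.22 on the log2 scale. Their sum was 203, 203 and 437 CPM in heat 1, 2 and 3 and 323, 783 and 784 CPM in control 1, 2 and 3. PSMA3, which encodes subunit alpha 7, measured 17.2, 15.9 and 65.7 CPM in heat 1, 2 and 3, against 53.1, 138 and 124 CPM in control 1, 2 and 3. Its groups overlapped, because heat 3 lay above control 1. The log2 fold change was -1.67 ± 0.65 (SE, n = 3 each), the lowest of all members, with an edgeR adjusted p of 0.117. PSMA6, which encodes alpha 1, measured 24.6, 24.2 and 62.8 CPM in heat 1, 2 and 3, against 39.7, 141 and 141 CPM in control 1, 2 and 3 (log2 fold change -1.53 ± 0.59). Heat 3 again exceeded control 1.

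PSMA7, the gene of alpha 4, varied least of all members. It measured 38.3, 36.4 and 39.3 CPM in heat 1, 2 and 3, against 42.2, 39.7 and 46.4 CPM in control 1, 2 and 3. The groups did not overlap, but the difference was small (38.0 ± 1.46 against 42.7 ± 3.37 CPM, SD; log2 fold change -0.17 ± 0.26; edgeR adjusted p = 0.665). Its gene shares 132 annotated bases with LSM14B, so some of its reads could belong to that neighbour. PSMA5, the gene of alpha 5, measured 22.5, 24.2 and 54.1 CPM in heat 1, 2 and 3, against 31.6, 75.0 and 78.4 CPM in control 1, 2 and 3. PSMA1, PSMA2 and PSMA4 had log2 fold changes of -1.22 ± 0.55, -1.05 ± 0.46 and -1.30 ± 0.48, with edgeR adjusted p-values between 0.104 and 0.163. Leaving out heat 3 and control 1, the log2 fold changes of PSMA1 to PSMA6 in order of number were -2.21, -1.69, -3.01, -2.16, -1.74 and -2.55, all called lower.

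The beta ring holds the proteolytic sites of the core, and 5 of its 7 genes were measured. All 5 had negative fold changes, from -0.83 for PSMB1 to -0.58 for PSMB3, and none passed (edgeR adjusted p between 0.320 and 0.453). PSMB7, the catalytic subunit with trypsin-like activity, measured 27.9, 23.4 and 74.4 CPM in heat 1, 2 and 3, against 28.0, 88.9 and 93.4 CPM in control 1, 2 and 3. Control 1 lay with heat 1 and heat 2, and heat 3 lay nearer to control 2 and control 3. PSMB1, a structural subunit of the ring, measured 22.0, 19.8 and 52.5 CPM in heat 1, 2 and 3, against 22.6, 73.5 and 71.8 CPM in control 1, 2 and 3, with the same libraries high and low. PSMB3, also structural, had 8.38, 7.53 and 21.3 CPM in heat 1, 2 and 3 and 9.41, 23.5 and 22.7 CPM in control 1, 2 and 3.

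PSMB4, another structural subunit, had its lowest library among the controls. It measured 25.4, 26.7 and 38.9 CPM in heat 1, 2 and 3, against 15.9, 66.2 and 60.6 CPM in control 1, 2 and 3. PSMB2 had a log2 fold change of -0.66 ± 0.51 and groups that overlapped. POMP, which the core needs to mature, measured 21.8, 20.4 and 68.8 CPM in heat 1, 2 and 3, against 23.2, 76.7 and 83.1 CPM in control 1, 2 and 3, with its log2 fold change at -0.72 ± 0.63 (edgeR adjusted p = 0.440). This is the order of libraries seen for PSMB7. Leaving out heat 3 and control 1, PSMB1, PSMB2, PSMB3, PSMB4, PSMB7 and POMP were all called lower, at -1.82, -1.63, -1.56, -1.31, -1.85 and -1.94 on the log2 scale. The summed beta ring was 97.6, 91.5 and 225 CPM in heat 1, 2 and 3 and 94.8, 295 and 291 CPM in control 1, 2 and 3.

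**Figure D3:**
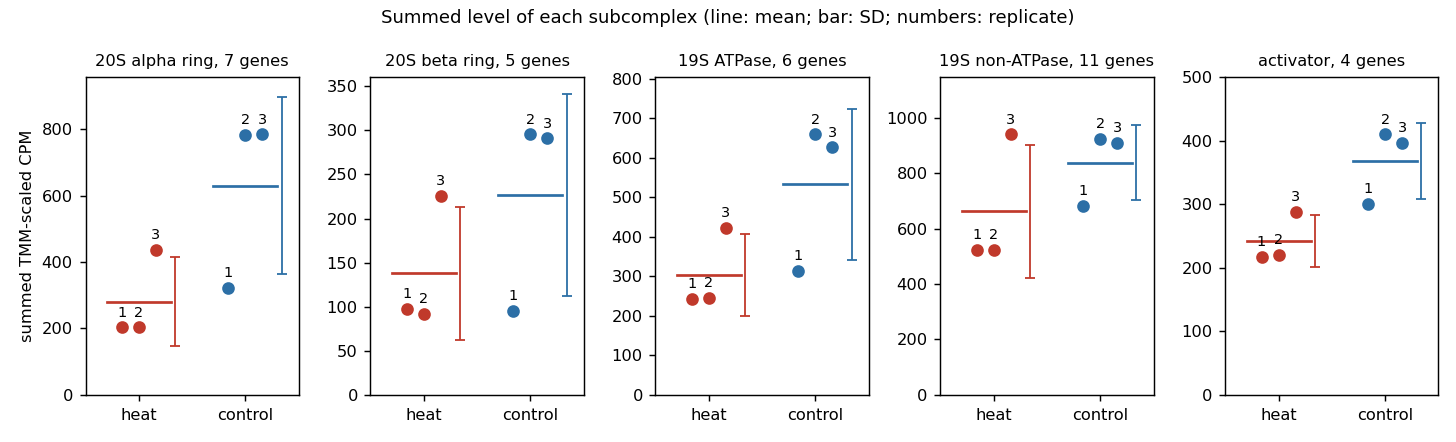
Summed TMM-scaled CPM of the measured genes of each subcomplex in each library (points, numbered by replicate), with the group mean (line) and SD (bar), heat on the left. Heat 1 and heat 2 are at the bottom of every panel but that of the beta ring, where control 1 lies between them, and heat 3 exceeds control 1 in every panel except the activators.

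The 19S ATPases, the ring of motors that unfolds substrates, all had negative fold changes, with a median of -0.62 over 6 genes. PSMC6 measured 55.4, 59.0 and 100.1 CPM in heat 1, 2 and 3, against 92.6, 237 and 199.7 CPM in control 1, 2 and 3, and its log2 fold change was -1.30 ± 0.44. Only heat 3 and control 1 crossed between the groups. PSMC1 measured 27.2, 27.3 and 73.9 CPM in heat 1, 2 and 3, against 46.9, 107 and 113 CPM in control 1, 2 and 3 (log2 fold change -1.06 ± 0.52). PSMC5 was nearly level in heat, at 38.1, 38.4 and 38.2 CPM in heat 1, 2 and 3, and stood at 31.1, 46.9 and 47.0 CPM in control 1, 2 and 3. Every heat library of PSMC5 fell between control 1 and the other controls, and the log2 fold change was -0.13 ± 0.29 (adjusted p by edgeR 0.779).

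PSMC4 measured 18.4, 16.2 and 30.8 CPM in heat 1, 2 and 3, against 10.2, 31.7 and 34.8 CPM in control 1, 2 and 3, so control 1 was its lowest library. PSMC2 and PSMC3 had log2 fold changes of -0.70 ± 0.38 and -0.54 ± 0.37, with edgeR adjusted p-values of 0.228 and 0.327. With both libraries left out, PSMC1 to PSMC6 in order of number were at -2.03, -1.26, -1.09, -0.97, -0.32 and -1.95, all called lower. The summed ATPases were 244, 245 and 423 CPM in heat 1, 2 and 3 and 313, 659 and 626 CPM in control 1, 2 and 3. PSMC1 and PSMC5 share annotated bases with NRDE2 and FTSJ3, and whether the counting used strand is not stated, so those reads are uncertain.

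The 19S non-ATPase subunits were mixed, with 8 negative and 3 positive fold changes and a median of -0.32 over 11 genes. Their sum was 524, 524 and 939.6 CPM in heat 1, 2 and 3 and 681, 922 and 910.4 CPM in control 1, 2 and 3, with heat 3 the highest library. PSMD7, the partner that holds the deubiquitinase PSMD14 in the lid, measured 20.3, 17.9 and 43.8 CPM in heat 1, 2 and 3, against 41.8, 84.8 and 84.7 CPM in control 1, 2 and 3. Heat 3 and control 1 were nearly level for it, and the log2 fold change was -1.36 ± 0.46 (edgeR adjusted p = 0.0867). PSMD14, which removes ubiquitin from substrates, measured 18.9, 19.6 and 60.7 CPM in heat 1, 2 and 3, against 51.7, 77.5 and 74.4 CPM in control 1, 2 and 3 (log2 fold change -1.04 ± 0.51). An annotated pseudogene lies inside the PSMD14 span, so its reads are uncertain to that extent. PSMD12, a structural subunit of the lid, measured 40.5, 45.3 and 106 CPM in heat 1, 2 and 3, against 104, 148 and 129 CPM in control 1, 2 and 3, and for it heat 3 and control 1 were level. Another, PSMD6, had a log2 fold change of -0.98 ± 0.47.

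On the other side of 0, PSMD3, a structural subunit of the lid, measured 32.4, 32.2 and 40.3 CPM in heat 1, 2 and 3, against 21.4, 27.0 and 31.4 CPM in control 1, 2 and 3. The groups did not overlap, though heat 2 and control 3 were close, and the log2 fold change was 0.39 ± 0.29 (edgeR adjusted p = 0.358). PSMD11, a lid subunit that contacts the 20S core, measured 37.9, 41.8 and 69.2 CPM in heat 1, 2 and 3, against 38.5, 39.0 and 47.0 CPM in control 1, 2 and 3. Only heat 3 stood above the rest for it. PSMD2, the scaffold of the base that receives shuttle factors, measured 162, 165 and 229 CPM in heat 1, 2 and 3, against 136, 166 and 173 CPM in control 1, 2 and 3. Its groups overlapped, with heat 3 highest and control 1 lowest, and the log2 fold change was 0.23 ± 0.31.

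PSMD1, the other large scaffold of the base, measured 87.9, 89.7 and 143 CPM in heat 1, 2 and 3, against 174, 141 and 118 CPM in control 1, 2 and 3. Unlike most members it was highest in control 1. PSMD8, a lid subunit, measured 41.1, 35.4 and 111 CPM in heat 1, 2 and 3, against 29.5, 75.2 and 87.9 CPM in control 1, 2 and 3. Heat 3 was its highest library and control 1 its lowest, and its log2 fold change of -0.04 ± 0.57 became 0.04 when libraries were scaled to their totals alone. PSMD1, the ubiquitin receptor PSMD4 and the lid subunit PSMD13 had log2 fold changes of -0.44 ± 0.34, -0.32 ± 0.46 and -0.17 ± 0.33. None of these 4 passed, with edgeR adjusted p-values between 0.383 and 0.968. With heat 3 and control 1 left out, PSMD1, PSMD4, PSMD8 and PSMD13 were called lower, at -0.57, -1.06, -1.11 and -0.51. So were PSMD6, PSMD7, PSMD12 and PSMD14, at -1.85, -2.17, -1.71 and -2.001. PSMD1 surrounds the annotated gene HTR2B, and PSMD6 shares 8483 annotated bases with ATXN7.

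Within the 19S non-ATPase transcripts, 7 of 11 genes took a share that did not overlap between the groups. Shares of the summed CPM of the 11 genes are not corrected for gene length, so they compare libraries, not genes, and a rise of 1 share lowers others. PSMD2 took 30.8, 31.6 and 24.4% in heat 1, 2 and 3 and 20.04, 18.0 and 18.99% in control 1, 2 and 3. PSMD3 took 6.18, 6.15 and 4.29% in heat 1, 2 and 3 and 3.14, 2.93 and 3.45% in control 1, 2 and 3. PSMD11 took 7.24, 7.98 and 7.37% in heat 1, 2 and 3 and 5.66, 4.23 and 5.16% in control 1, 2 and 3. All heat libraries exceeded all controls for these 3 genes, heat 3 and control 1 included.

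PSMD6, PSMD7, PSMD12 and PSMD14 had lower shares in every heat library than in every control. PSMD7 took 3.87, 3.42 and 4.66% in heat 1, 2 and 3 and 6.14, 9.20 and 9.30% in control 1, 2 and 3. PSMD14 took 3.61, 3.75 and 6.46% in heat 1, 2 and 3 and 7.60, 8.41 and 8.17% in control 1, 2 and 3, and PSMD12 averaged 9.21 ± 1.81% in heat and 15.1 ± 0.962% in controls (SD). In all, 3 of 11 genes had higher and 4 of 11 lower shares without overlap. When all 14242 genes were divided by the same sum, 19.9% were higher and 13.8% lower without overlap.

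**Figure D4:**
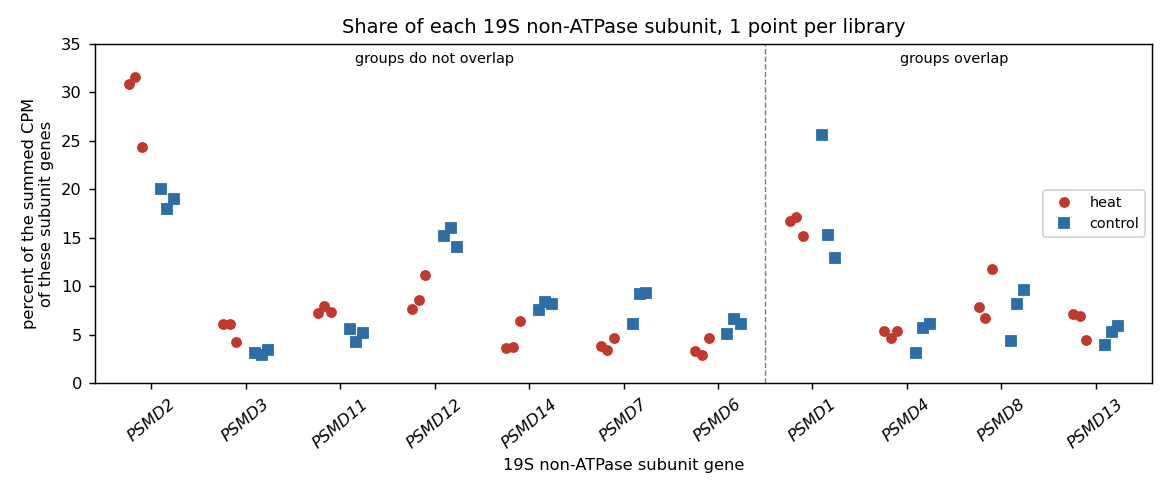
Percent of the summed CPM of the 11 genes of 19S non-ATPase subunits that each gene took, 1 point per library, heat (circles) left of control (squares). For the 7 genes left of the dashed line no heat library overlaps a control, with PSMD2 between 24.4 and 31.6% in heat and between 18.0 and 20.04% in controls.

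In the other subcomplexes fewer genes had shares without overlap. In the ATPase ring, PSMC6 took 22.7, 24.1 and 23.7% in heat 1, 2 and 3 and 29.6, 35.98 and 31.9% in control 1, 2 and 3, and PSMC4 was higher in heat (7.15 ± 0.490 against 4.55 ± 1.17%, SD). PSMA3 was lower (10.4 ± 4.01 against 16.6 ± 0.904%) and PSMA5 higher (11.8 ± 0.675 against 9.79 ± 0.213%) in the alpha ring. In the beta ring PSMB1 was lower, by a narrow margin (22.5 ± 0.827 against 24.5 ± 0.585%). Divided by the alpha, beta or ATPase sum, 30.4, 10.3 and 26.3% of all genes were higher without overlap, and 2.63, 6.67 and 5.99% were lower.

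Scaled to the summed reads of the 34 members in place of the library, PSMD3 had the highest log2 fold change, 1.10 ± 0.32, and PSMA3 the lowest, -1.11 ± 0.42. PSMD2 had 0.89 ± 0.35 and PSMD11 had 0.86 ± 0.33, while PSMD7 had -0.72 ± 0.29. By the edgeR test 0 members passed on this scale, where 0.0421% of all genes did, and 5 had an unadjusted p below 0.05. The lowest adjusted p was 0.0971, for PSMD3. Without control 1, PSMD2, PSMD3, PSMD11 and PSME3 were called higher and PSMA6 and PSMD7 lower on this scale (32.8 and 3.06% of all genes). Without heat 3, PSMD3 was called higher and PSMA3 lower (24.4 and 2.21% of all genes). Of the 34 members, 7 were higher (PSMC3, PSMC4, PSMD2, PSMD3, PSMD4, PSMD11 and PSMD13) and 4 lower (PSMA3, PSMA4, PSMC6 and PSMD7) in all heat libraries than in all controls on this scale, against 24.7 and 7.85% of all genes.

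The 4 activators summed to 218, 220.2 and 289 CPM in heat 1, 2 and 3 and to 300.4, 410.1 and 397 CPM in control 1, 2 and 3. Their sums did not overlap, unlike those of the other classes, but heat 3 and control 1 were close. PSME4 took the largest share of the sum, 56.0, 57.6 and 57.9% in heat 1, 2 and 3. Its share was 67.9, 52.3 and 45.1% in control 1, 2 and 3. Only PSME4 had groups without overlap (every heat library was below every control for 16.8% of all genes). The 4 activators differed from each other in their order of libraries. PSME1 and PSME2 encode the alpha and beta subunits of PA28, which interferon induces and which favours the production of antigenic peptides. On Sscrofa11.1 they lie side by side on chromosome 7, PSME2 at 75154570 to 75157871 and PSME1 at 75161830 to 75164531, with 3958 bases between them. PSME1 measured 23.0, 22.3 and 33.1 CPM in heat 1, 2 and 3, against 21.0, 73.3 and 82.0 CPM in control 1, 2 and 3. PSME2 measured 41.0, 39.9 and 30.1 CPM in heat 1, 2 and 3, against 21.6, 80.9 and 87.7 CPM in control 1, 2 and 3. Both were high only in control 2 and control 3, the controls in which interferon-stimulated genes were also high, and both were lowest in control 1.

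The ratio of PSME1 to PSME2 was 0.561 and 0.558 in heat 1 and heat 2, against 1.10 in heat 3. It was 0.972, 0.907 and 0.934 in control 1, 2 and 3. Neither gene passed with all libraries (log2 fold changes -1.17 ± 0.51 and -0.78 ± 0.51; edgeR adjusted p = 0.150 and 0.306), and without control 1 both were called lower in heat. Without heat 3 neither was called.

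PSME3, which encodes the nuclear activator PA28 gamma, measured 31.8, 31.2 and 58.5 CPM in heat 1, 2 and 3, against 53.9, 41.6 and 48.0 CPM in control 1, 2 and 3. PSME4, which encodes PA200, measured 122, 127 and 167 CPM in heat 1, 2 and 3, against 204, 214 and 179 CPM in control 1, 2 and 3. Every heat library of PSME4 lay below every control, heat 3 and control 1 included, while those of PSME3 overlapped. The log2 fold change of PSME4 was -0.52 ± 0.30 (edgeR adjusted p = 0.252), and that of PSME3 was -0.24 ± 0.34 (edgeR adjusted p = 0.643). With heat 3 and control 1 left out, PSME1, PSME2, PSME3 and PSME4 were called lower, at -1.80, -1.08, -0.53 and -0.68.

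Among 48 tested genes of 7 other lists of the ubiquitin-proteasome pathway, 2 were higher, 1 was lower and 45 did not pass (6.71 and 4.32% of all genes were higher and lower), with a median log2 fold change of -0.11. ZFAND2A, which encodes AIRAP, a stress-inducible protein that binds the proteasome, measured 66.8, 77.6 and 84.1 CPM in heat 1, 2 and 3, against 3.81, 3.01 and 4.12 CPM in control 1, 2 and 3. It rose by 4.38 ± 0.32 in log2 units (edgeR adjusted p = 0.00906), and the groups were far apart. NPLOC4, a cofactor of the segregase VCP that extracts ubiquitin-tagged proteins, measured 36.3, 33.7 and 42.9 CPM in heat 1, 2 and 3, against 18.0, 16.4 and 19.1 CPM in control 1, 2 and 3. It rose by 1.08 ± 0.27 (edgeR adjusted p = 0.0457), also without overlap. The other 5 tested ZFAND genes and the other 10 tested shuttle and segregase genes did not pass.

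The lower gene was NFE2L2, which encodes NRF2, a relative of NRF1 that drives antioxidant and some proteasome genes. It measured 77.5, 77.9 and 97.3 CPM in heat 1, 2 and 3, against 175, 271 and 232 CPM in control 1, 2 and 3, and its log2 level fell by 1.42 ± 0.32 (edgeR adjusted p = 0.0390). NFE2L1 itself measured 309, 292 and 152 CPM in heat 1, 2 and 3, against 250.0, 131 and 146 CPM in control 1, 2 and 3. Its high libraries were heat 1, heat 2 and control 1, those in which the summed members were lowest, and it did not pass (log2 fold change 0.51 ± 0.42; edgeR adjusted p = 0.409). Without control 2 or control 3 these tests called 0 pathway genes, and without heat 1 or heat 2 only ZFAND2A was called.

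**Figure D5:**
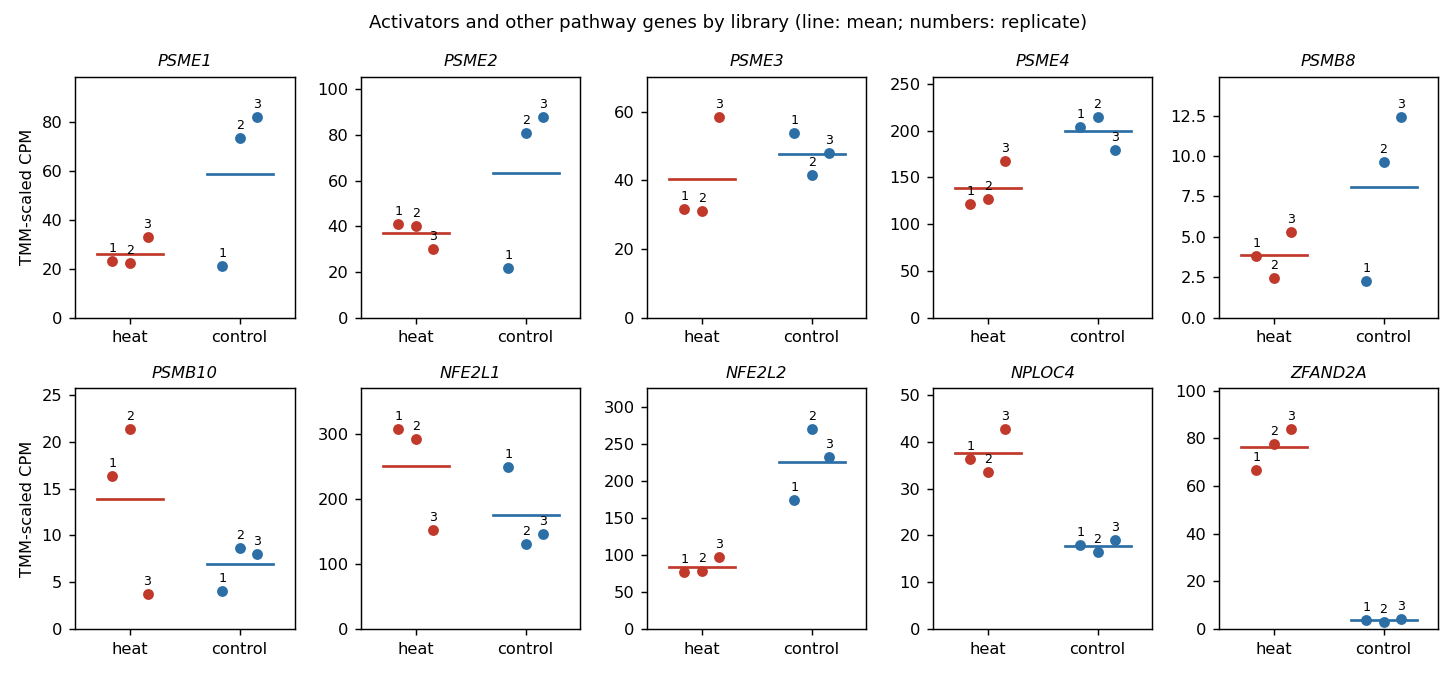
TMM-scaled CPM of the 4 activators and of 6 other pathway genes in each library (points, numbered by replicate; line, group mean), heat on the left. The heat libraries of ZFAND2A and NPLOC4 lie above all controls and those of NFE2L2 and PSME4 below them, whereas PSME1, PSME2, PSME3, PSMB8, PSMB10 and NFE2L1 overlap.

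The 3 tested inducible 20S subunits, which replace the constitutive catalytic ones under interferon, did not pass. PSMB8 measured 3.79, 2.42 and 5.32 CPM in heat 1, 2 and 3, against 2.27, 9.61 and 12.4 CPM in control 1, 2 and 3. PSMB9 measured 0.549, 0.465 and 0.886 CPM in heat 1, 2 and 3, against 0.267, 2.40 and 1.88 CPM in control 1, 2 and 3. It was lowest in control 1 and high in control 2 and control 3, as PSME1 was. Its counts were low, with 11, 10 and 29 reads in heat 1, 2 and 3 and 4, 55 and 38 in control 1, 2 and 3. PSMB10 was highest in heat 1 and heat 2, at 16.4 and 21.4 CPM, against 3.73 CPM in heat 3 and 4.07, 8.65 and 7.98 CPM in control 1, 2 and 3. PSMB10 replaces PSMB7, and its ratio to PSMB7 was 0.588, 0.917 and 0.0501 in heat 1, 2 and 3 and 0.145, 0.0973 and 0.0855 in control 1, 2 and 3. The edgeR adjusted p-values of the 3 inducible subunits lay between 0.248 and 0.282.

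None of the 6 tested assembly chaperones and none of the 10 tested proteasome-bound factors passed. PSMG1, which helps assemble the alpha ring, measured 17.1, 17.7 and 28.1 CPM in heat 1, 2 and 3, against 9.61, 19.5 and 20.2 CPM in control 1, 2 and 3. USP14, a deubiquitinase bound to the 19S particle, measured 42.0, 41.9 and 86.3 CPM in heat 1, 2 and 3, against 77.1, 95.7 and 91.8 CPM in control 1, 2 and 3. Its groups overlapped through heat 3. The polyubiquitin gene UBB measured 208, 218 and 613 CPM in heat 1, 2 and 3, against 64.2, 503 and 589 CPM in control 1, 2 and 3, with heat 3 highest and control 1 lowest. It did not pass (log2 fold change -0.16 ± 0.79; edgeR adjusted p = 0.906). Without heat 3 and control 1, where 79.6% of all genes were called, UBB, PSMB8, PSMB9 and USP14 were called lower, at -1.38, -1.85, -2.10 and -1.18. PSMB10 and NFE2L1 were called higher, at 1.16 and 1.10, and PSMG1 did not pass, at -0.21.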

How the data were processed

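Per the labels' protocols and the submitters' processing notes, stranded mRNA libraries were read as pairs, and STAR, Trim Galore and FastQC 0.11.4 were used with the build Sscrofa11.1. The sources used here do not give the counting tool, its use of strand or the annotation release. The authors deposited raw read counts per Ensembl gene for 6 libraries, and a second table of 13298 genes whose values are a signal, the authors' counts divided by 1 size factor per library. Multiplied by that factor, 100% of its values came out whole (tolerance 1e-06), and edgeR on those reads called 1631 genes and 0 members.

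Genes were kept by filterByExpr (minimum count 10). Heat was tested against control with edgeR 4.0.16 in R 4.3.3 (quasi-likelihood F test, two-sided, TMM factors, robust dispersion), with Benjamini-Hochberg adjustment over 14242 genes and calls below 0.05. The SE is the absolute log2 fold change over the square root of F. The fitted common biological coefficient of variation was 43.6%. DESeq2 1.42.0 and limma 3.58.1 were alternatives. The test was also checked on simulated data, but the simulated libraries were drawn independently, without near-identical pairs. That check thus cannot show how the test behaves on these libraries. Symbols and coordinates came from the reference tables (RefSeq, Sscrofa11.1), by symbol, for 15623 identifiers. Gene sequences were not used here. Of the members, 9 share annotated bases with another gene.

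All members are accounted for. Values in every library were given for catalytic, activator and POMP genes, and in each ring or particle class for the highest and lowest fold changes. Pathway genes were named where called or where fixed by name, and not every gene of that rule is reported here. PSMD1, PSMD2, PSMD8 and PSMD12 are shown in full and the make-up of the subcomplexes was compared after values were seen. Members and lists were chosen with earlier results of these data known. PSMG2, PSMG4, SEM1, DDI1 and DDI2 matched no symbol. PSMB11 and PSMA8 had 0 reads in every library, and NFE2L3 was too low to test. The labels do not say whether replicate numbers pair the libraries. Deviations from the group means correlated at 0.299, -0.232 and 0.223 for numbers 1, 2 and 3. With only 3 libraries per group and a near-identical pair in each, these values cannot decide it.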

Additional observations from a re-analysis of the deposited data

How the results depend on the processing

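The 34 members gave 0 calls under TMM, RLE and upper-quartile scaling, library totals, both filters, limma-voom, limma on the authors' values and the recovered reads. DESeq2 called 5 and the fit without heat 3 and control 1 called 30. Leaving out each library gave 0 to 10 member calls, 0 to 15 pathway calls and 0 to 5530 calls over all genes. Over all genes, 1571 were called, 60.9% of them higher, against 2457 with no filter on low counts, 928 at 10 CPM in 3 libraries, 3910 by DESeq2, 12142 without heat 3 and control 1, and 2 with the near-identical pairs summed. Library totals alone made 79.2% of the calls higher and moved the median of all genes from 0.05 to 0.17. Pathway calls, 3 in all, were 5 at 10 CPM, 7 by DESeq2, 5 by limma at either pseudocount, 40 without heat 3 and control 1, and 0 with the pairs summed. Scaled to the summed members, member calls were 0 with all libraries, 0 to 6 when each library was left out, and 27 of 34 without heat 3 and control 1, where 83.1% of all genes were called. The cause of these differences was not tested.

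With the replicate number as a block, 3404 genes, 7 members (PSMA1, PSMA3, PSMA4, PSMA6, PSMC6, PSMD7 and PSMD14, all lower) and 8 pathway genes were called. The 3404 genes were 23.9% of 14242 tested genes, 2104 higher and 1300 lower, and the 7 members were 20.6% of 34. Whether the numbers pair the libraries is not stated in the labels. Of the controls, control 1 had the highest correlation of log2 CPM with every heat library (0.892, 0.885 and 0.920 for heat 1, 2 and 3). These correlations thus cannot decide it. With the block, the log2 fold change of UBB was 0.17.

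The log2 ratio of summed levels, heat over control, was -1.17, -0.72, -0.81, -0.34 and -0.61 for the alpha ring, beta ring, ATPases, non-ATPases and activators. Without heat 3 and control 1 it was -1.95, -1.63, -1.40, -0.81 and -0.88. It moved by less than the replicate SD under every other setting tried for it, the shares of reads and each single library left out.

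Signs changed for 7 of 44 genes, in 24 of 830 values, none of them called. Without heat 3 and control 1, PSMD2, PSMD11 and PSMG1 had log2 fold changes of -0.0748, -0.13 and -0.21. With the pairs summed, PSMC4, PSMD8 and UBB had 0.11, 0.39 and 0.41. PSMC5 had 0.00624 at 10 CPM. PSMD8 had 0.0386 by library totals, 0.0022 with no filter and 0.0197 at 10 CPM. UBB had 0.20 by limma-voom and 0.18 by limma on the authors' values at both pseudocounts. When each library was left out, the log2 fold change ran from -0.63 to 0.0154 for PSMC4, from -0.0755 to 0.41 for PSMD11, from -0.76 to 0.24 for PSMD8 and from -0.87 to 0.25 for UBB. The lowest count of a member in any library was 141 reads, and the part of depth or of the number of libraries in these calls was not tested.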
